A study of Schizosaccharomyces pombe with 8 samples.

Results

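The small RNA of the unmutated strain of this series was described across all 17962 genomic elements of the deposited table. The strain, spb464, is a fission yeast (Schizosaccharomyces pombe) of genotype ade6-hp+, and its library was 1 of 8, each from a different strain. It was chosen by its label as wild type for the Paf1 complex, and no value was used to choose it. The 7 mutant strains carry the same ade6-hp+ genotype and were not compared here. Cells grew in rich medium at 30 °C to an OD600 of 0.5, and RNA of 18 to 28 nt was cut from a gel before sequencing. With 1 library, no value below has a biological error and no test was possible. Intervals are exact (Clopper-Pearson) 95% intervals. They cover counting error only, since reads amplified by PCR and not tagged before it are not independent.

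In this yeast, small interfering RNAs of this size are made by RNA interference. Dicer (Dcr1) cuts double-stranded RNA into short interfering RNAs, Argonaute (Ago1) carries them to matching transcripts, and an RNA-dependent RNA polymerase (Rdp1) copies those transcripts into more double-stranded RNA. The pathway is known for the outer repeats of the centromeres, where it guides methylation of histone H3 and the formation of heterochromatin. A gel slice of this size also holds fragments of abundant cellular RNAs such as tRNA, rRNA and messenger RNA. The genotype name ade6-hp+ stands, as far as the study is known, for a construct that makes a hairpin RNA against ade6, a gene of adenine synthesis whose loss turns colonies red.

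Each deposited value, called the level here, is log2 of a length-scaled read number plus 8, so that an element with no reads sits at 3. The number of reads behind each level was recovered from the value of 1 read. In an element of 1000 nt, 1 read gave a level of 3.04 and a level of 5 took 122 reads. Over all elements the recovered reads came to 6422517, and 4374 elements (24.4%) had none. Many elements lie inside others, such as a UTR inside its transcript. Read shares were therefore taken over the 7287 elements that were not at least 90% inside an element of the same strand with as many reads, which held 5515692 reads. The median level was 3.36, and 2078 elements, 11.6% of the 17962 in the table, reached 5.

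Pericentromeric elements held 65.1% of the reads (95% interval 65.1% to 65.2%), in 73 of the 7287 elements. The 4 genes ade6, cox4, nmt1 and adh1 held 8.79%, nearly all of it at ade6 and at 1 intron of cox4. The outer 100 kb of chromosomes 1 and 2 held 6.59%, in 214 elements. Elements on or overlapping a gene for a structural RNA (rRNA, tRNA, snRNA or snoRNA) on either strand held 28.6%, and most of these reads lay in 8 pericentromeric repeats, so this share and the first one overlap. When each element was put in 1 part only, pericentromeric elements without a structural RNA gene opposite them held 44.1%, and those with one held 21.0%. Elements elsewhere that lie opposite a structural RNA gene held 6.81% in 17 elements. The 2827 other elements that lie opposite a protein-coding transcript held 8.82%, and the 3946 remaining elements held 3.44%.

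**Figure D1:**
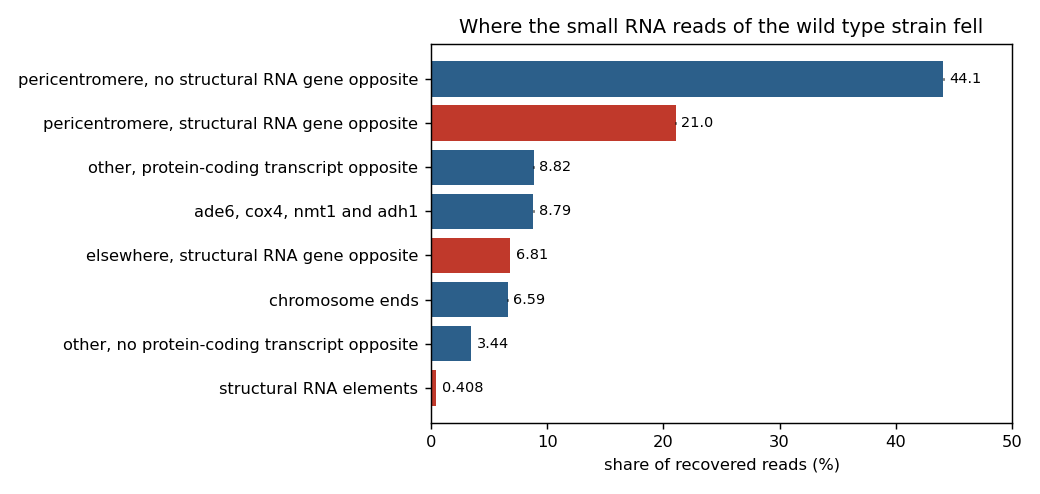
Share of recovered reads (%) in each part of the table, with every element counted in 1 part. Bars are shares of the 5515692 reads, and their 95% counting intervals are too narrow to see at this scale. Red bars, which mark elements on or opposite structural RNA genes, hold 21.0% in the pericentromeres, 6.81% elsewhere and 0.408% at the structural RNA elements themselves.

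A small number of elements carried most of the reads. The 10 elements of most reads held 40.2% (40.1% to 40.2%), the first 25 held 70.05% and the first 100 held 89.8%. The first 14 elements were enough for 50% of the reads and 108 for 90%. Of the first 25, 18 were pericentromeric (4 of them with a tRNA gene opposite), 3 were other elements opposite a tRNA or rRNA gene, 2 were tlh1 and tlh2 at the chromosome ends, and the last 2 were ade6 and cox4.

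The strand on which reads were counted bears on every value, and the structural RNA genes show it. The 280 elements annotated as structural RNA had a median of 5.55 reads. The 17 transcripts and non-coding RNAs outside pericentromeres that overlap such a gene by at least 40 nt on the other strand had a median of 1389 reads, 250 times as many, while the 34 that overlap one on the same strand had a median of 39.0. These reads are not scaled by length, which differs widely. For example, the peg1 transcript of 5467 nt lies opposite a tRNA-Ala gene of 72 nt. The 4 elements opposite tRNA genes had a median of 11735 reads, against 139 for the 3 on the same strand. The 9 opposite snoRNA genes had a median of 416 reads, against 39.0 for the 24 on the same strand. At these genes the reads were thus found at elements on the other strand. The counting strand is not stated in the sources used, so the strands named below are the annotated strands of the elements and not those of the RNA.

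The sequences of the structural RNA genes that lie opposite the highest elements are shown first, because many reads of the table lie opposite them. They are from the RefSeq reference (ASM294v3), whose 3 chromosome lengths equal the largest element ends in the table. The tRNA-Glu gene at chr2:4107639-4107710 (plus strand) has 6 identical copies, the tRNA-Ile gene at chr1:3773910-3773983 (minus strand) has 6, and the tRNA-Leu gene at chr2:1644083-1644183 (minus strand) has 4. In the 5S rRNA lines, from chr1:149658-149776 and chr2:520406-520494 (both plus strand), capitals mark the 16 bases that both share. In the last line, from chr3:814799-814896 (plus strand), capitals mark the bases equal to the 28S rRNA gene SPRRNA.47.
tRNA-Glu: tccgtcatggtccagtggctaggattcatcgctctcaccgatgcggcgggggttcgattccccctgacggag
tRNA-Ile: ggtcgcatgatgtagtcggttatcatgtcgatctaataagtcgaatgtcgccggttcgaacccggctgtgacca
tRNA-Leu: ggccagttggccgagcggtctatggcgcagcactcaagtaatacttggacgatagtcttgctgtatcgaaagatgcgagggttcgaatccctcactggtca
5S rRNA opposite hsp3102: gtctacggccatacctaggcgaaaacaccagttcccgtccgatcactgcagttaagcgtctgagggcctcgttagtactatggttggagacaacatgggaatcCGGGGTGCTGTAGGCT
5S rRNA gene end opposite SPNCRNA.1366: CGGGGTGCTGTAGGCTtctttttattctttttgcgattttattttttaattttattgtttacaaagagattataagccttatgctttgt
opposite unknown_53: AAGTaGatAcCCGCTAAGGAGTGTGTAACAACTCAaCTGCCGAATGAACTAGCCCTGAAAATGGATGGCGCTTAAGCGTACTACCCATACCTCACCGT

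Of the 25 elements of most reads, 3 lay opposite a structural RNA gene outside the pericentromeres. SPAC5H10.02c (hsp3102, annotated as a relative of the Hsp31 family) had 151823 reads, of which 151801 were in its 5′ UTR, where the whole 5S rRNA gene SPRRNA.10 lies on the other strand. SPNCRNA.1366 had 103808 reads at a level of 13.11. It overlaps 89 nt of the annotated 5S gene SPRRNA.29, and only the first 16 bases of that overlap match SPRRNA.10. SPNCRNA.1669 had 84717 reads at a level of 12.85 and lies opposite the tRNA-Glu gene printed above. The element unknown_53, a stretch of 98 nt annotated as rRNA on the minus strand of chromosome 3, had 19031 reads and a level of 15.22, the highest of the rRNA class. Its other strand equals the 28S rRNA gene at 93 of 98 bases (94.9%). The next rRNA elements were SPRRNA.26 at 6.82 and SPRRNA.41 at 6.27, and the class of 48 had a median of 3.33.

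Apart from SPNCRNA.1669, the elements opposite tRNA genes outside the pericentromeres were 3 protein-coding genes. SPAC105.03c (dal81) had 15693 reads, of which 15691 fell in its 3′ UTR opposite a tRNA-Tyr gene. SPAC15A10.13 (ppk3) had 7778 reads, with 7757 in its 5′ UTR opposite a tRNA-Val gene. SPAC3G9.12 (peg1) had 4631 reads, with 4469 in its 5′ UTR opposite a tRNA-Ala gene. In each of the 3 genes, nearly all reads lay in the UTR that overlaps the tRNA gene.

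The pericentromeres were the main site of small RNA. They were bounded by the outermost elements classed as centromeric, at chr1:3753687-3789421, chr2:1602773-1644747 and chr3:1070904-1137003, and each has a unique central core between inverted inner repeats, with outer repeats (dg and dh) on both sides. Centromere 3, the longest at 66100 nt, held 29.8% of all reads, centromere 2 held 22.1% in 41975 nt, and centromere 1 held 13.2% in 35735 nt. Per length of element, and without elements opposite structural RNA genes, the 3 were close: 25.0 reads per nt at centromere 1, 19.3 at centromere 2 and 26.4 at centromere 3. Of the 53 repeats, 48 reached a level of 5, against 11.6% of all elements, and the median was 11.90. The 10 kb flanks held 94.5 and 614 reads at centromere 2 and 220 and 385 reads at centromere 3 (left and right), far fewer than the repeats beside them. At centromere 1 the flanks held 14572 and 13926 reads, and all but 1494 and 485 of these were in 2 boundary RNAs described below.

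**Figure D2:**
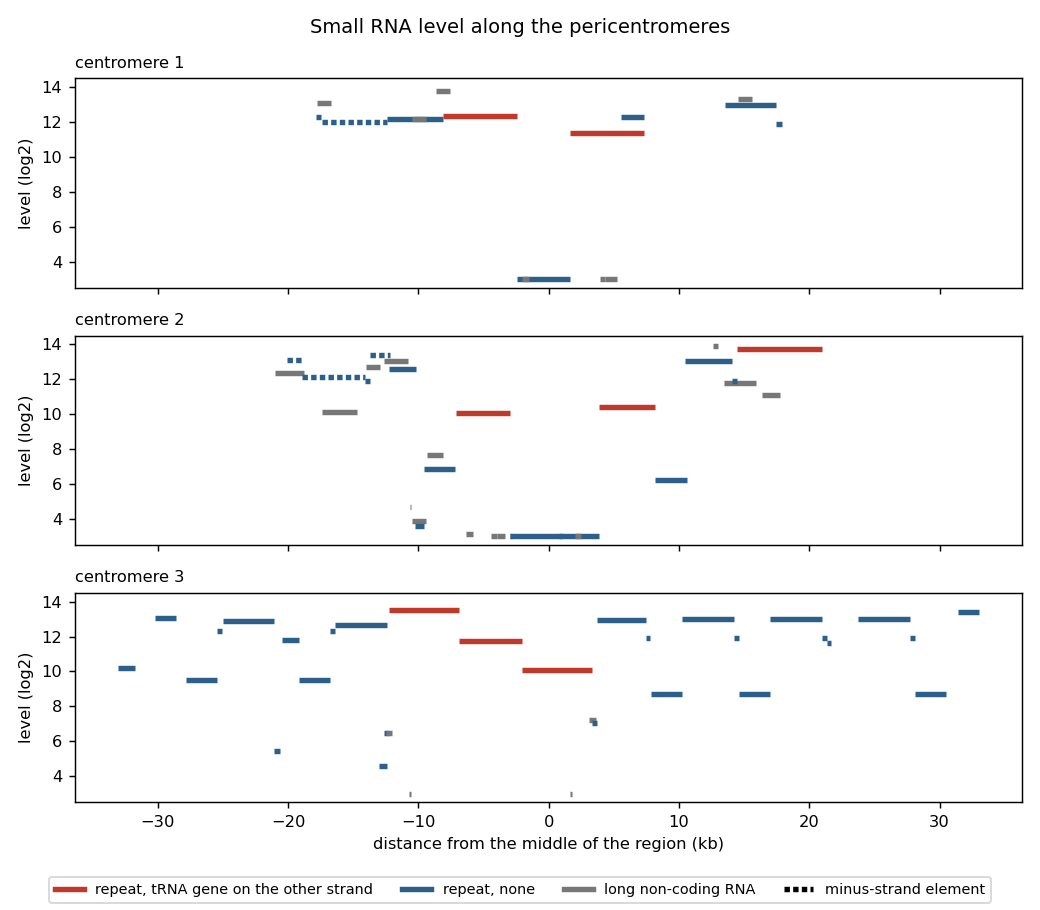
Level (log2) of repeats and long non-coding RNAs along the 3 pericentromeres, against distance in kb from the middle of each region. Each bar spans 1 element, red for repeats with a tRNA gene on the other strand, blue for other repeats, grey for non-coding RNAs and broken for the minus strand. Outer repeats sit mostly between 11 and 14, the core repeats of centromeres 1 and 2 sit at 3.01 to 3.03, and non-coding RNAs with no reads sit at 3.

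Among the 45 repeats with no structural RNA gene opposite them, 29 had levels of 11 or above, 3 lay between 9 and 11, 8 between 5 and 9, and 5 below 5. Together they held 2122765 reads over 92007 nt, or 23.1 reads per nt. The most reads were at the copies of 3942 nt on the right arm of centromere 3 (unknown_88, unknown_91 and unknown_94), which are identical in sequence and each had 166967 reads at a level of 13.03. The left-arm relatives of the same length, unknown_69 and unknown_74, had 152804 and 131042 reads at levels of 12.90 and 12.68. On the other chromosomes the same range was reached by unknown_152 of centromere 1 (157136 reads, level 12.96), unknown_76 of centromere 2 (151941 reads, level 13.03) and unknown_85 of centromere 3 (150614 reads, level 12.97). The elements of 2385 and 2386 nt that alternate with them were lower, at 9.53 on the left arm of centromere 3 (unknown_67 and unknown_72) and 8.73 to 8.74 on the right arm (unknown_87, unknown_90 and unknown_96). How reads of identical copies were divided between them is not stated, so equal values do not show that each copy makes as much RNA.

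Because some repeats occur in both directions, their copies give the 2 strands of 1 sequence. A repeat of 391 nt is present in 9 identical copies on all 3 chromosomes, 3 in one direction with 10100 reads each and 6 in the other with 7558 reads each, a ratio of 1.34. The 1632-nt repeats at the outer edges of centromere 3 (unknown_97 and unknown_66), also identical but inverted, had 88564 and 71713 reads, a ratio of 1.23. In both, small RNA of both strands was present. The inverted pair opposite tRNA genes, described below, differed 10.9 times. A second repeat of 391 nt next to the inner repeats of centromere 3 was far lower in both directions. It had 247 reads at unknown_84 and 160 at unknown_76, a ratio of 1.54. The first 150 bases of the common 391-nt repeat (chr1:3753687-3753836, plus strand, the direction of 10100 reads) are shown because it is the repeat present at all 3 centromeres.
391-nt repeat: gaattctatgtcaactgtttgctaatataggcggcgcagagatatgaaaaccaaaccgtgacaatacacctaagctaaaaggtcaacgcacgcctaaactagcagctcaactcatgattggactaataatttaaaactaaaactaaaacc

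Some places of centromeres 1 and 2 have elements annotated on both strands, which overlap in part, and both had reads. On the left arm of centromere 2, SPNCRNA.359 (plus strand) had 26.8 reads per nt, against 44.1 for unknown_62 on the minus strand, SPNCRNA.361 had 33.5 against 55.3 for unknown_65, and SPNCRNA.362 had 42.4 against the same 55.3. The plus strand was higher for the shorter overlaps of SPNCRNA.359 with unknown_63 (26.8 against 22.8) and of SPNCRNA.361 with unknown_64 (33.5 against 19.3). SPNCRNA.360 lies wholly opposite unknown_63 and had 5.70 reads per nt, against 22.8. On centromere 1, SPNCRNA.230 had 45.1 reads per nt, against 20.8 for unknown_146. Plus-strand elements held 89.9% of pericentromeric reads, but they also make up 90.3% of the length of the pericentromeric elements counted, and per nt the strands had 24.5 and 25.6 reads (plus and minus).

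The 8 repeats with a tRNA gene on the other strand held 1160884 reads over 41844 nt, and the largest 2 were the first and second of the whole table. The element unknown_78 of centromere 2 (6518 nt) had 453501 reads at a level of 13.74 and spans a tRNA-Leu and a tRNA-Gly gene. The element unknown_77 of centromere 3 (5364 nt) had 318058 reads at a level of 13.51 and spans tRNA-Arg, tRNA-Thr and tRNA-Leu genes, the last identical to the tRNA-Leu of unknown_78. Its inverted copy unknown_81 has the same sequence on the other strand, spans tRNA-Val and tRNA-Asn genes instead, and had 29132 reads at a level of 10.08, so that the 2 strands of this repeat differed 10.9 times. The inner repeats of centromere 1 are also inverted and 98.9% identical. There, unknown_148, opposite tRNA-Ala and tRNA-Glu genes, had 147293 reads, while unknown_150, opposite a tRNA-Ile gene, had 74683, a gap of 72611 reads. SPNCRNA.232, which overlaps unknown_148 in part and has no tRNA gene opposite, had 77546 reads. The source of the gap was not tested.

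Among elements that span the same tRNA sequence at different places, some pairs had similar numbers of reads and others did not. SPNCRNA.1669 on the arm of chromosome 2 and the core element unknown_80 of centromere 3 share only the tRNA-Glu sequence as a structural gene, and their 84717 and 85607 reads differed by 890. The part of unknown_150 outside the nested element unknown_151 spans the tRNA-Ile gene and had 30584 reads, and unknown_73 of centromere 2, which spans an identical tRNA-Ile gene, had 30121. These pairs were chosen after their values were seen. In contrast, unknown_148 also spans the tRNA-Glu sequence, beside a tRNA-Ala gene, and had 147293 reads, and unknown_77 and unknown_78 differ although they span the same tRNA-Leu sequence. Within the tRNA-bearing repeats, 8 shorter non-coding RNAs of the same strand do not span the tRNA genes. Of these, 7 had at most 2 reads each over 3164 nt in all (SPNCRNA.333, SPNCRNA.366 to SPNCRNA.368, SPNCRNA.396, SPNCRNA.483 and SPNCRNA.484). The exception was SPNCRNA.373 inside unknown_78 with 15995 reads. Other non-coding RNAs overlap such repeats only in part, with no tRNA gene opposite. Among them, SPNCRNA.232 (at unknown_148) had 77546 reads and SPNCRNA.372 (at unknown_78) had 44984. SPNCRNA.482 (at unknown_77) and SPNCRNA.485 (at unknown_81) had only 205 and 355. The nested element unknown_151, with no tRNA gene opposite, had 44098 reads. How the reads of unknown_77, unknown_78 and unknown_148 divide between tRNA fragments and other small RNA cannot be told apart from 1 value per element.

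The cores of centromeres 1 and 2 were close to empty. At centromere 1, unknown_149 (4107 nt, between the inner repeats) had 2.5 reads at a level of 3.02. At centromere 2, unknown_71 and unknown_72 had 1 and 2.80 reads at levels of 3.01 and 3.03. The core element of centromere 3, unknown_80, had a level of 11.76, with the tRNA-Glu gene described above near its left end. Next to the inner repeats of centromere 2, unknown_69 and unknown_75 had levels of 6.88 and 6.24, below those of the outer repeats and above those of the core.

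Long non-coding RNAs annotated in the pericentromeres ranged from no reads to the highest level of these regions. Of the 26, 14 reached a level of 5, against 11.6% of all elements, 8 had no reads, and the highest were SPNCRNA.371 at 13.89 (29509 reads in 384 nt), SPNCRNA.232 at 13.76 and SPNCRNA.234 at 13.31. SPNCRNA.362 had the most reads of the class, 77764 at a level of 13.03, and was the last of the 25 elements of most reads. SPNCRNA.371 lies inside unknown_76, and its first 150 bases (chr2:1636393-1636542, plus strand) occur at 2 places in the reference, both pericentromeric. They are printed because no pericentromeric element had more reads per nt (76.8).
SPNCRNA.371: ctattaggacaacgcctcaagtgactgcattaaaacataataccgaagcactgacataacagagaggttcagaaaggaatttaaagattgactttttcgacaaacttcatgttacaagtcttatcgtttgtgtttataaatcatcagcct

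The boundaries of centromere 1 were marked by a pair of inverted non-coding RNAs, SPNCRNA.84 (IRC1-L) and SPNCRNA.95 (IRC1-R), known as boundary elements between pericentromeric heterochromatin and the chromosome arms. They lie 198 nt left and 164 nt right of the classed repeats. IRC1-L had 13079 reads at a level of 12.93, and IRC1-R had 13441 reads at a level of 12.83, the highest 2 levels of the class of 1091 long non-coding RNAs outside centromeres and chromosome ends. All 330 bases of IRC1-L recur in IRC1-R. In the first 150 bases of IRC1-R (chr1:3789585-3789734, plus strand), capitals mark where the shared stretch starts.
IRC1-R: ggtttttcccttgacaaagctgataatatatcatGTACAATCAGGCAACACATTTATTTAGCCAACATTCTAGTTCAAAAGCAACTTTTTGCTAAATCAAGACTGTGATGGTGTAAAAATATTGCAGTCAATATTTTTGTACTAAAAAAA

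At the chromosome ends the reads were concentrated in the outermost 20 kb and were unequal between ends. The left end of chromosome 1 had 180208 reads and the right end of chromosome 2 had 166151, against 10581 at the right end of chromosome 1 and 213 at the left end of chromosome 2. The assembled sequence of chromosome 1 starts at tlh1, while that of chromosome 2 starts with a repeat classed as subtelomeric (unknown_1). The read numbers of the assembled ends thus compare unlike sequence. The telomeric helicase genes tlh1 and tlh2, near-identical copies, are known targets of RNA interference because part of their sequence resembles the centromeric repeats. SPAC212.11 (tlh1) had 111899 reads, 19.8 per nt, at a level of 11.93, and SPBCPT2R1.08c (tlh2) had 111860, 18.6 per nt, at 11.84. Levels were higher in the neighbouring pseudogenes SPAC212.10 (41211 reads, 13.71) and SPBCPT2R1.10 (39549 reads, 13.53), which are identical at 596 of 598 aligned bases, so that reads of the pair could not be assigned to 1 end.

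Levels varied between neighbouring elements of an end. On the left end of chromosome 1, inward of SPAC212.10, the repeat unknown_1 had a level of 12.17 and unknown_2 had 9.23, with SPAC212.09c inside it at 10.75. Further in, SPAC212.08c had only 3.17 (6 reads), and unknown_3 had 6.37. On the right end of chromosome 2, SPBCPT2R1.07c had 10.75 and unknown_199, about 21.5 kb from the end, had 8.67. The right end of chromosome 1 had lower levels, with 8.80 at SPAC750.08c, 8.06 at unknown_232 and 7.40 at unknown_229. The transcript SPAC212.06c, inside unknown_3 at the left end of chromosome 1, had 7.58, with 7.53 in its 5′ UTR and 6.19 in its 3′ UTR. Of the 27 elements classed as telomeric 16 reached a level of 5, while of the 113 classed as subtelomeric 0 did, against 11.6% of all elements. The highest subtelomeric level was 4.67. Between 20 and 50 kb, the 4 ends held 42.1 to 2987 reads, the highest on the right of chromosome 2, where unknown_199 held 2784. Plus-strand elements held 14.4% of reads at the ends of chromosome 1 and 89.1% at those of chromosome 2. These are the directions in which tlh1 and tlh2 are annotated. At tlh1, tlh2, SPAC212.10 and SPBCPT2R1.10 no element is annotated on the other strand. The shares thus follow the annotation and do not show that small RNA of the other strand was absent.

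**Figure D3:**
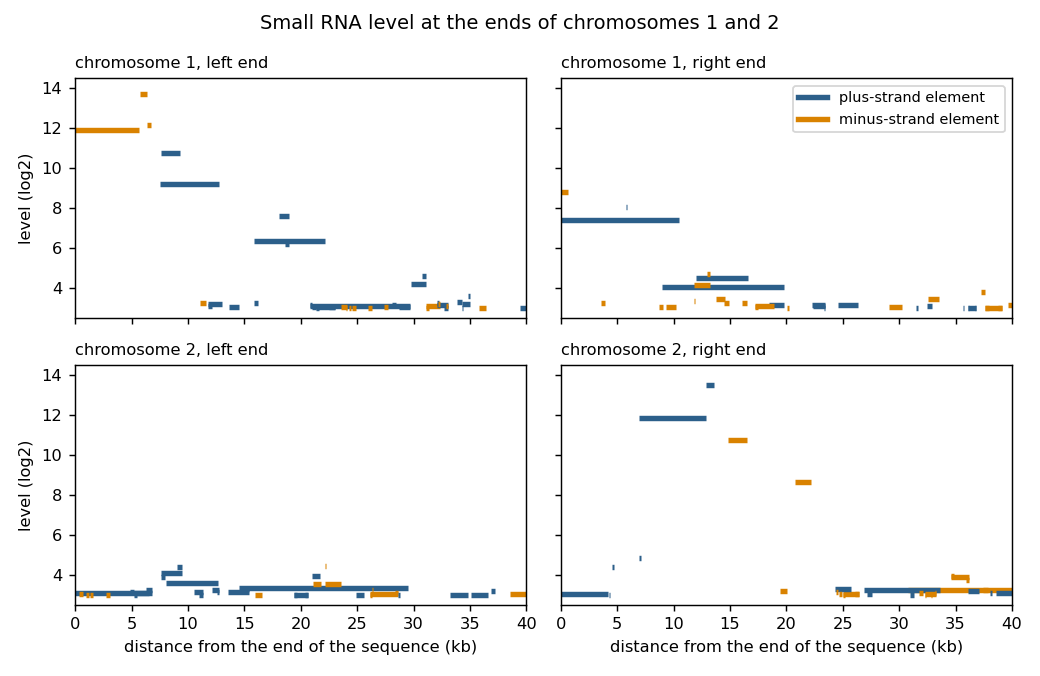
Level (log2) against distance in kb from the end of the assembled sequence, for the 4 ends of chromosomes 1 and 2. Bars span single elements, blue for the plus strand and orange for the minus strand. The left end of chromosome 1 and the right end of chromosome 2 reach 13.71 and 13.53, and no element at the left end of chromosome 2 reaches 5 within the 40 kb drawn.

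The highest level of the whole table, 17.05, was at an intron of cox4 (SPAC1296.02), a gene for a subunit of cytochrome c oxidase, at chr1:711413-711767 on the plus strand. This intron of 355 nt had 244917 reads, 99.9% of the 245142 of its transcript. Outside it the transcript had 225 reads, among them 6 in the 5′ UTR and 29 in the 3′ UTR. The intron starts and ends with the usual splice dinucleotides, in capitals in its first and last 60 bases, which bound the sequence removed from the messenger RNA.
cox4 intron start: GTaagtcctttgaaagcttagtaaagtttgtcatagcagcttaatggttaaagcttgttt
cox4 intron end: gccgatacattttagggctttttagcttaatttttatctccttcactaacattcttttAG

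At ade6 (SPCC1322.13, chr3:1316243-1318070, plus strand) 237290 reads gave a level of 14.64, the second of the protein-coding transcripts. Of these reads 237047 (99.9%) lay between the UTRs, with 18.0 in the 5′ UTR and 226 in the 3′ UTR. The neighbouring genes had almost none. The left neighbour bub1, a spindle checkpoint kinase gene, had 110 reads at 3.84, and the right neighbour vtc4, a polyphosphate synthase gene, had 6 at 3.07. As far as the study is known, the hairpin construct may share sequence with cox4, nmt1 and adh1 besides ade6, but the labels do not describe its parts. The table places reads by sequence, so reads of a construct and reads of the genes themselves cannot be told apart.

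The other 2 genes differed by strand. The nmt1 element (SPCC1223.02) had 88.0 reads at a level of 4.50, while SPNCRNA.1234 on the other strand had 8155 reads at 9.29, and SPNCRNA.504, which follows nmt1 on its own strand and was chosen after its value was seen, had 3311 at 9.90. The adh1 element (SPCC13B11.01), for an alcohol dehydrogenase, had 2516 reads, of which 2358 were in its long 5′ UTR, while SPCC13B11.02c on the other strand had 14213, of which 14209 were in its 3′ UTR. The 4 genes together held 485036 reads, and ade6 and cox4 made up 99.5% of these. Counting also the elements opposite them took their share of all reads to 9.21%.

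Few reads lay at the mating-type genes found and at the LTR, Tf2 and wtf elements. Of the mating-type genes, mat1-Mc and mat3-Mc had 2.33 reads each and mat1-Mi and mat3-Mi had 0.667 each, with levels of 3.14 to 3.17. The genes mat2-Pc and mat2-Pi were not found by name in the reference table and were not analysed here. Of the mating-type region, only the 4 genes found are described, and not the sequence between them. Of 221 LTR elements 7 reached a level of 5, led by unknown_216 at 6.37, unknown_17 at 5.76, unknown_197 at 5.70 and unknown_201 at 5.58, and the median was 3.40. Of 27 Tf2 elements, the LTR retrotransposons of this genome, 1 reached 5 (unknown_208, 5.15). The other 3 highest Tf2 elements had 3.71 (Tf-fragment4), 3.27 (Tf-fragment1) and 3.25 (Tf2-3). None of the 28 wtf elements, which include spore-killer genes, reached 5 in this library, and the highest were wtf11 at 4.21, wtf25 at 3.78, wtf21 at 3.39 and wtf12 at 3.37. Shares at that threshold of 3.17% for LTR and 3.70% for Tf2 elements were below the 11.6% of all elements.

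**Figure D4:**
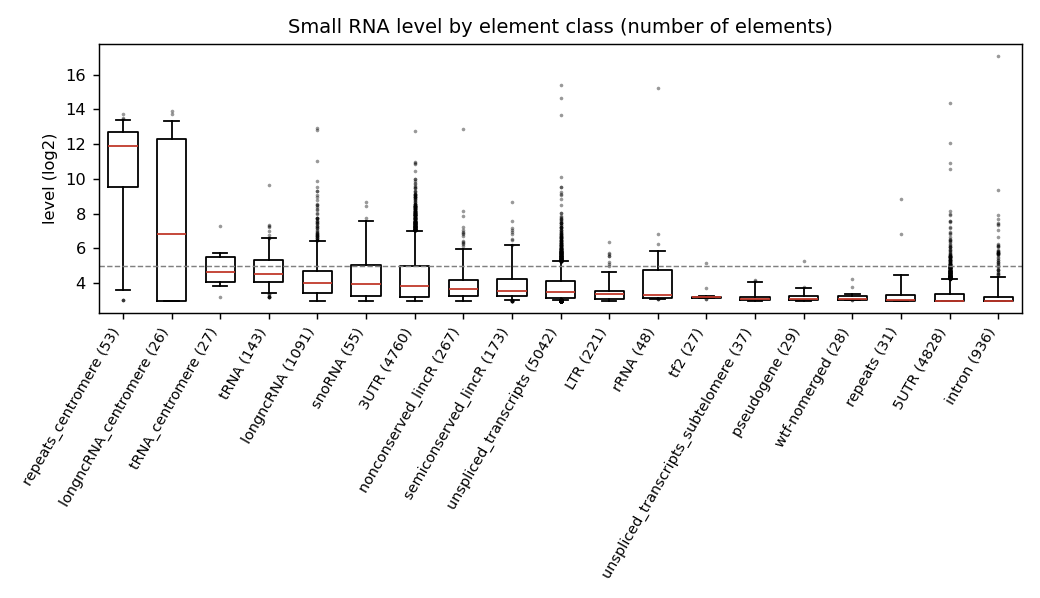
Level (log2) of the elements of each class with at least 20 members, ordered by median. Boxes span the quartiles with the median in red, whiskers the 5th to 95th percentiles, dots are elements beyond these, and the broken line is a level of 5. Pericentromeric repeats have a median of 11.90, and introns, 5′ UTRs and Tf2 elements lie near 3 with single elements far above.

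Protein-coding transcripts had a median level of 3.47, and 368 of 5086 reached 5. The genes of RNA interference and heterochromatin were near that level, with 1 of 21 at 5 or above and a median of 3.57. The exception was epe1, which encodes a factor that opposes heterochromatin, with 1213 reads at 6.09. It was followed by arb2 (4.71) and arb1 (4.22), both partners of Argonaute, and eri1 (4.26), a nuclease that removes small RNAs. The 5 Paf1 complex genes had a median of 3.38 and 0 at 5 or above, with leo1 at 4.61 (231 reads), paf1 at 3.50, tpr1 at 3.38 and cdc73 at 3.36. Of the 10 genes on a meiotic list that also holds mmi1 and red1, 9 were found and 0 reached 5. The highest were mcp7 at 4.86, crs1 at 4.11, rec8 at 3.74 and spo5 at 3.32. The phosphate genes tgp1 (3.25), pho1 (3.22) and pho84 (3.11) were near the floor.

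Housekeeping and ribosomal protein genes were near or slightly below all protein-coding transcripts at their own elements. Expression of these genes was not measured here. Of the 10 housekeeping and glycolysis genes 1 reached 5, against 368 of 5086 protein-coding transcripts. It was adh1 (7.24), and the list had a median of 3.22. The next were pgk1, which encodes phosphoglycerate kinase, with 35 reads, gpd3 with 25 and eno101 with 17. Of the 131 ribosomal protein genes found among 132, 10 reached 5, close to the share of all protein-coding transcripts (368 of 5086), and 11 had no reads. The highest were rps2602 (7.15), rps3002 (6.33), rps1401 (5.96) and rpl4302 (5.86). Their median was 3.19, against 3.47 for all protein-coding transcripts.

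Where an element overlaps a ribosomal protein gene on the other strand, it mostly had many more reads than the gene. For 29 of these genes a transcript or non-coding RNA overlaps at least 200 nt on the other strand, and the opposite element had more reads in 27. The median was 1590 reads at the opposite element, against 31 at the gene. These reads are not scaled by length, and many opposite elements are longer than the gene. They are counted over the whole opposite element, so they need not lie opposite the gene. In level, which is scaled by length, the medians were 6.94 and 4.08. Over all 1922 protein-coding genes with such a partner, the opposite element had more reads in 1190, or 61.9%. Their medians were 123 and 78.0 reads, and 4.33 and 3.94 in level. Picking the opposite element of most reads favours the opposite side in both sets, so the 2 shares are read against each other. As cases chosen after their values were seen, SPNCRNA.1103 had 2830 reads, against 9 at rpl902, SPNCRNA.1261 had 1882, against 2 at rps20, SPNCRNA.1465 had 1873, against 1 at rps1601, and SPNCRNA.1245 had 1100, against 0 at rpl2702. The exceptions were rpl1603, with 209 reads at apl1 opposite it and 319 of its own, and rps101, with 48 at gpi7 and 81 of its own.

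**Figure D5:**
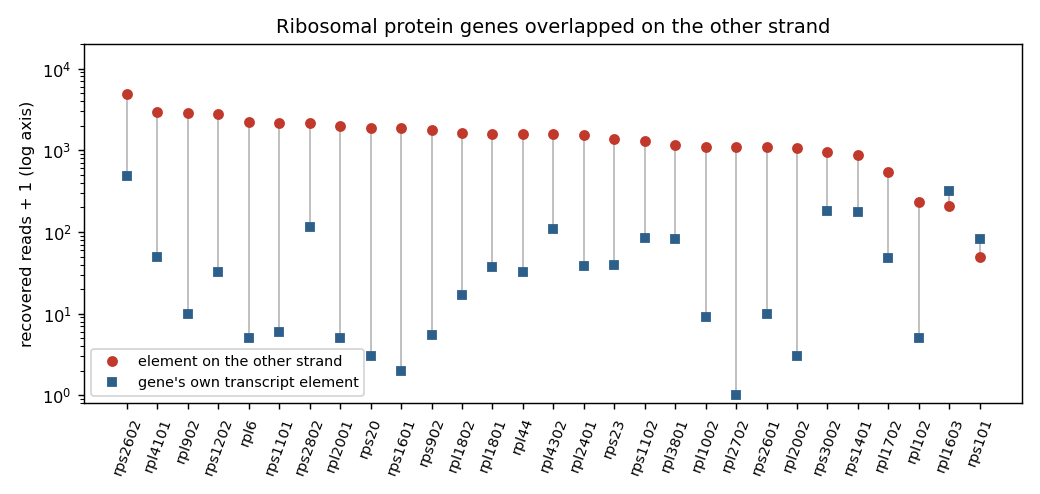
Recovered reads plus 1 (log axis) for the 29 ribosomal protein genes with an element on the other strand, red circles for the opposite element of most reads and blue squares for the gene's own transcript. The opposite element is higher in 27, and lower for rpl1603 and rps101.

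A higher opposite element was also found at 3 other genes, chosen after their values were seen. SPNCRNA.957 had 3475 reads, against 4.17 at the translation elongation factor gene tef102 opposite it. SPNCRNA.1194 had 2653 reads, against 51 at the histone gene hta1, and SPNCRNA.826 had 2029, against 18.2 at cpc2, which encodes a ribosome-bound protein. At gpd3, a glyceraldehyde-3-phosphate dehydrogenase gene of the housekeeping list, the difference was smaller, with 89.5 reads (level 3.63) at SPBC354.11c opposite it, against 25 (level 3.39) at gpd3. Long non-coding RNAs with at least 50% of their length opposite a protein-coding transcript reached a level of 5 in 22.1% of 661 cases, against 6.98% of the 301 with no transcript opposite. Their median levels went the same way, at 4.31 and 3.31, and 0.605% and 18.3% had no reads. Reads per nt summed over each set went the other way, at 0.116 with a transcript opposite and 0.213 without. Such a sum can be set by a few elements. For example, IRC1-R and IRC1-L, with no protein-coding transcript opposite, had 13441 and 13079 reads. Their median lengths were 1353 and 459 nt. Among protein-coding transcripts the shares at level 5 were 18.8% of 607 and 2.15% of 2794, with 0.0906 and 0.0175 reads per nt. Reads of such a non-coding RNA and of the messenger RNA opposite it cannot be told apart without the counting strand.

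The 3′ UTR was the part of genes with the most reads per length. Of 3448 genes with at least 10 reads in the transcript, and outside the regions above, 2624 (76.1%) had more reads per nt in the 3′ UTR than in the rest of the transcript. Summed over these genes, the 3′ UTRs had 0.154 reads per nt and the rest had 0.0256. For 5′ UTRs the share was 18.2% of 3390 genes, with 0.0240 reads per nt against 0.0526 in the rest. In this compact genome, 3′ UTRs of convergent genes overlap, and 3′ UTRs with at least 50% of their length opposite another transcript reached a level of 5 in 43.0% of 1238 cases, against 10.7% of 2797 without one. Their reads per nt were 0.163, against 0.0503. Both groups exceeded the 5′ UTRs, of which 5.53% of 434 and 1.01% of 4058 (with and without a transcript opposite) reached 5.

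Among UTRs the highest levels were those of dal81 (3′ UTR, 12.75) and hsp3102 (5′ UTR, 14.39) described above, then peg1 (5′ UTR, 12.08), rer2 (3′ UTR, 10.96), mae1 (5′ UTR, 10.93) and ccc2 (3′ UTR, 10.91). The UTRs of rer2 and ccc2 are only 35 and 16 nt long and had 351 and 156 reads, which shows how few reads a high level takes in a short element. Introns apart from that of cox4 were nearly empty, with 1636 reads in all, 680 of 936 at 0 and the next highest being bqt1 with 176 reads (level 7.89) and lsm6 with 165 (level 9.36).

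A few genes outside the repeats had high levels without a structural RNA gene opposite them. They were chosen after their values were seen, except SPNCRNA.477, which was the third of the long non-coding RNA class with 10467 reads in 997 nt (10.5 per nt). The malate permease gene mae1 had 7250 reads at 9.54 and the malic enzyme gene mae2 had 1803 at 7.48. Of the 3357 reads of rrp40, which encodes a subunit of the RNA exosome, 3334 lay in the 3′ UTR. The intergenic RNAs that were not opposite structural genes had at most a level of 8.65 (SPNCRNA.1094), followed by SPNCRNA.1464 at 8.17, SPNCRNA.743 at 7.86, SPNCRNA.988 at 7.57 and SPNCRNA.1510 at 7.19. Precursor rRNA elements were not counted as structural genes, and SPNCRNA.1094 lies inside one on the same strand (unknown_3 of chromosome 3). The conserved intergenic RNAs SPNCRNA.1651 and SPNCRNA.1511 had 5.75 and 5.52.

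The remaining classes held few reads. The small nuclear RNA snu2 (U2) had 127 reads at a level of 5.95 and the snoRNAs snR5, snR40 and snoZ3 had 8.67, 8.43 and 7.73. The highest tRNA elements were SPCTRNAGLN.06 at 9.65, SPATRNASER.01 at 7.34 and SPCTRNALYS.11 at 7.27, and the median of the 170 tRNA elements was 4.55. Among tRNA genes classed as centromeric, SPCTRNALYS.10 had 7.27 and SPATRNAILE.03 and SPATRNAILE.04 had 5.73 each. The precursor rRNA elements unknown_173, unknown_1 and unknown_171 on chromosome 3 had 6.75, 6.56 and 5.57. The replication origin unknown_14 had 8.02, the repeats unknown_15 and unknown_166 had 8.82 and 6.82, and the pseudogene unknown_187 had 5.26.

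Over the whole library 77.0% of reads (77.0% to 77.1%) lay on elements of the plus strand. This share followed where repeats are annotated, since 48 of the 53 pericentromeric repeats are on the plus strand. Outside the pericentromeres and chromosome ends, and without structural RNA and the 4 genes, 50.3% of reads were on plus-strand elements, which make up 49.9% of the length counted. Per chromosome this was 51.4% for chromosome 1, 51.6% for chromosome 2 and 45.9% for chromosome 3. These elements together held 12.3% of all reads, at 0.0535 reads per nt on plus and 0.0527 on minus, against 24.5 and 25.6 in the pericentromeres.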

How the data were processed

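Per the labels' protocols, the 18 to 28 nt fraction was purified from 25 µg of small RNA and prepared with a small RNA kit. Bowtie 0.9.9.1 and CASAVA 1.8 are named, without their roles, per the submitters' processing notes. Neither the genome build nor the counting rules, strand included, are stated in the labels or the table. The authors deposited log2 values, and only the wild-type column was used. After removal of the offset of 8, level times element length fell on multiples of 197. This value of 1 read made 84.3% of elements above 0 whole within 0.05. The share was 32.1% for pericentromeric repeats, where fractions are common, and 81.2% for transcripts. Recovered reads are thus calculated, were rounded for intervals and entered no count model. Elements that overlap only in part are counted more than once. The share of linear level in pericentromeric repeats was 24.3%. Symbols came from the reference table, which held 6495 of 6657 transcript and non-coding elements. The read recovery and the removal of nested elements were tested on simulated data. Python 3.11.15, pandas 2.3.3, scipy 1.17.1 and Biopython 1.88 were used. Members, lists and thresholds were chosen with earlier results of these data known. Named elements were the 25 of most reads, the 3 of highest level in each class at 5 or above, all members of short lists and up to 4 of longer ones. Other elements named in the text were chosen after their values were seen.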

Additional observations from a re-analysis of the deposited data

How the results depend on the processing

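No paired analysis was possible because the strain has 1 library. The ratio of median reads opposite and on structural RNA genes, not scaled by length, was 250 with an overlap of 20 nt and 249 with 80 nt. Shares were compared with counting intervals alone, and every alternative run moved them beyond these. With linear level in place of reads the pericentromeric share was 48.0%, that of chromosome ends 7.74%, of the 4 genes 12.8%, of structural RNA genes 22.1%, of the 10 elements of most reads 36.2% and of the plus strand 67.6%. With nested elements included the same 6 shares were 58.7%, 5.92%, 11.4%, 28.2%, 36.0% and 75.3%, and with a containment limit of 50% they were 63.9%, 6.84%, 9.13%, 29.7%, 41.7% and 76.2%. Without elements at or opposite structural RNA genes the other 5 were 61.6%, 9.24%, 12.3%, 43.9% and 77.7%. Leaving out only the elements opposite such genes, an alternative chosen after seeing the data, gave 61.1%, 9.13%, 12.2%, 43.4% and 77.3%. Also chosen after seeing the data, the 4 genes with the elements opposite them held 9.21%, and elements opposite structural genes alone held 27.9%. Boundaries 10 kb further out gave 65.7% for pericentromeres, a window of 20 kb gave 6.48% for chromosome ends, and the 100 elements of most reads held 89.8%. Keeping the offset gave 21.0% of linear level in pericentromeric repeats. Thresholds of 4 and 6 gave 5070 and 921 elements in place of 2078, and at least 10 reads gave 7841. Of the elements at level 5 or above, 54 had under 10 reads. With at least 1 read in the transcript 3161 genes had the higher density in the 3′ UTR, and with at least 50 reads 1417 of 1822 did. The cause of these moves was not tested. In 1000 nt, levels below about 3.04 are under 1 read.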
